A study of Mus musculus with 6 samples.

Results

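The 10 genes described here are Hspa5, Hsp90b1, Calr, Pdia4, Pdia6, Dnajb9, Sdf2l1, Hyou1, Herpud1 and Creld2, chosen by name as chaperones of the endoplasmic reticulum (ER) and companion genes of the unfolded protein response. They are 10 of the 20950 entries of the expression table, and all 10 belong to the 10731 entries whose average over the libraries reached 1 FPKM. FPKM is the number of fragments per length of transcript, scaled to the number of mapped reads, so levels can be compared between genes per length. The values come from C2C12, an established line of mouse myoblasts, which form myotubes in low serum, and the study examined how exosomes of fetal bovine serum (FBS) act on that differentiation. There were 6 mRNA libraries in 5 conditions. One library each came from cells in 10% FBS (growth medium), 2% HS (horse serum), 2% HS + exosome and 0.2% FBS, and 2 libraries came from 0.2% FBS + exosome. The added exosomes were a fraction that commercial kits precipitated from FBS, given at the amount contained in 10% FBS, and the low serum media without it served as controls. The labels do not say whether the 2 exosome libraries of 0.2% FBS came from separate cultures. A p-value therefore rests on the spread between these 2 libraries alone, taken for each gene together with that of the other genes tested. They are called replicate 1 and replicate 2 here. Replicate 1 shares its number in the labels with the 0.2% FBS library, and replicate 2 has another number.

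Proteins of the secretory pathway enter the ER unfolded, and chaperones hold them, close their disulphide bonds and keep them from leaving until they are folded. When unfolded proteins accumulate, the sensors ATF6, IRE1 (Ern1) and PERK (Eif2ak3) switch on the unfolded protein response. ATF6 and the IRE1 product XBP1 raise the chaperones and the degradation machinery. PERK acts through phosphorylation of eIF2alpha and translation of ATF4, an arm that is also driven by amino acid shortage through another kinase, GCN2. The chaperone genes are for this reason used to read the unfolded protein response apart from amino acid stress. In muscle cells, ER chaperones serve secreted and membrane proteins and the calcium store of the sarcoplasmic reticulum.

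The ER stress response element (ERSE) was first described in promoters of ER chaperone genes, so the stretches that match in some of the members are shown before the values. Promoter windows of 300 bases, from 250 bases before to 50 after the transcription start, were taken from RefSeq on GRCm38.p6 (mm10) for 9 of the 10 genes, with Hyou1 as the gene without an entry. The ERSE was searched on both strands as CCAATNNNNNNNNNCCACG, a CCAAT box (bound by NF-Y) and a CCACG end (bound by ATF6 or XBP1) with 9 bases between. It was in 5 of the 9 windows and in 0.119% of all 32851 promoter windows. ERSE-II, which is ATTGG, 1 base of any kind and CCACG, was in the Herpud1 window and in 0.0365% of all windows. In the stretches below, written 5′ to 3′ along the gene with 12 flanking bases on each side, the capitals mark the fixed letters of the match. An element read on the opposite strand appears as CGTGG followed by ATTGG.
Hspa5, chr2:34772013-34772055, plus strand, ERSE starting 65 bases before the transcription start: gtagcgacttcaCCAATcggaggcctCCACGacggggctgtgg
Hsp90b1, chr10:86705626-86705668, minus strand, ERSE 212 bases before the start: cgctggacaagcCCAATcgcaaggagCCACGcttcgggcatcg
Hsp90b1, chr10:86705521-86705563, minus strand, opposite ERSE 107 bases before the start: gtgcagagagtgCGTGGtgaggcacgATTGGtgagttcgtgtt
Calr, chr8:84847063-84847105, minus strand, opposite ERSE 162 bases before the start: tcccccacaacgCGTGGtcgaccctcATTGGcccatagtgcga
Pdia6, chr12:17266479-17266521, plus strand, ERSE 98 bases before the start: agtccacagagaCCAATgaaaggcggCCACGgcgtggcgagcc
Creld2, chr15:88819508-88819550, plus strand, opposite ERSE 126 bases before the start: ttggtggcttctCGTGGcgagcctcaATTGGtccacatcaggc
Herpud1, chr8:94386365-94386399, plus strand, ERSE-II 52 bases before the start: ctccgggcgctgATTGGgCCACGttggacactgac
Herpud1, chr8:94386305-94386336, plus strand, opposite CARE core 112 bases before the start: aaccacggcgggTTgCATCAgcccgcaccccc

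The last stretch is shown because Herpud1 was the only member with a match to TGATGNAA, here called the CARE core, the sequence through which ATF4 and C/EBP factors act on amino acid response genes. That core was in 3.97% of all windows, in 5 of 14 windows of the amino acid response list and in 6 of 16 of the PERK and ATF4 list. The XBP1 core TGACGTGG (0.676% of windows) and the heat shock element core GAANNTTC (7.86%) were in 0 of the 9 member windows, while 8 of 12 windows of the cytosolic heat shock list held the heat shock core. The bare CCAAT box, which is contained in every ERSE and ERSE-II, was in all 9 member windows and in 37.4% of all windows. Distances are from the RefSeq start. For Hspa5 the GENCODE gene span given below begins further upstream, so that the stretch lies inside it. A match describes the letters in this window and is not a measured binding site.

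All 10 genes were expressed in every library, over a wide range. The mean over the 6 libraries was highest for Calr (400.0 FPKM), followed by Hspa5 (383 FPKM), Hsp90b1 (319 FPKM) and Pdia6 (174 FPKM). Herpud1 (85.9 FPKM), Creld2 (52.4 FPKM), Pdia4 (48.0 FPKM), Hyou1 (33.7 FPKM), Dnajb9 (25.4 FPKM) and Sdf2l1 (13.2 FPKM) were lower. The ranges of most neighbours in this order overlapped, from 276 to 675 FPKM for Hspa5 and from 320 to 525 FPKM for Calr, for example. Those of Hsp90b1 (258 to 504 FPKM) and Pdia6 (138 to 220 FPKM) did not. Summed over the 10 genes, the level was 1205 FPKM in 10% FBS, 1528 in 2% HS, 1391 in 2% HS + exosome and 1464 in 0.2% FBS. The 2 libraries of 0.2% FBS + exosome lay at 2298 FPKM (replicate 1) and 1326 FPKM (replicate 2). The share of all FPKM taken by the 10 genes was 0.498% in replicate 1 and between 0.257% and 0.324% in the other 5 libraries. Replicate 1 therefore stood apart from every other library, its partner included.

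**Figure D1:**
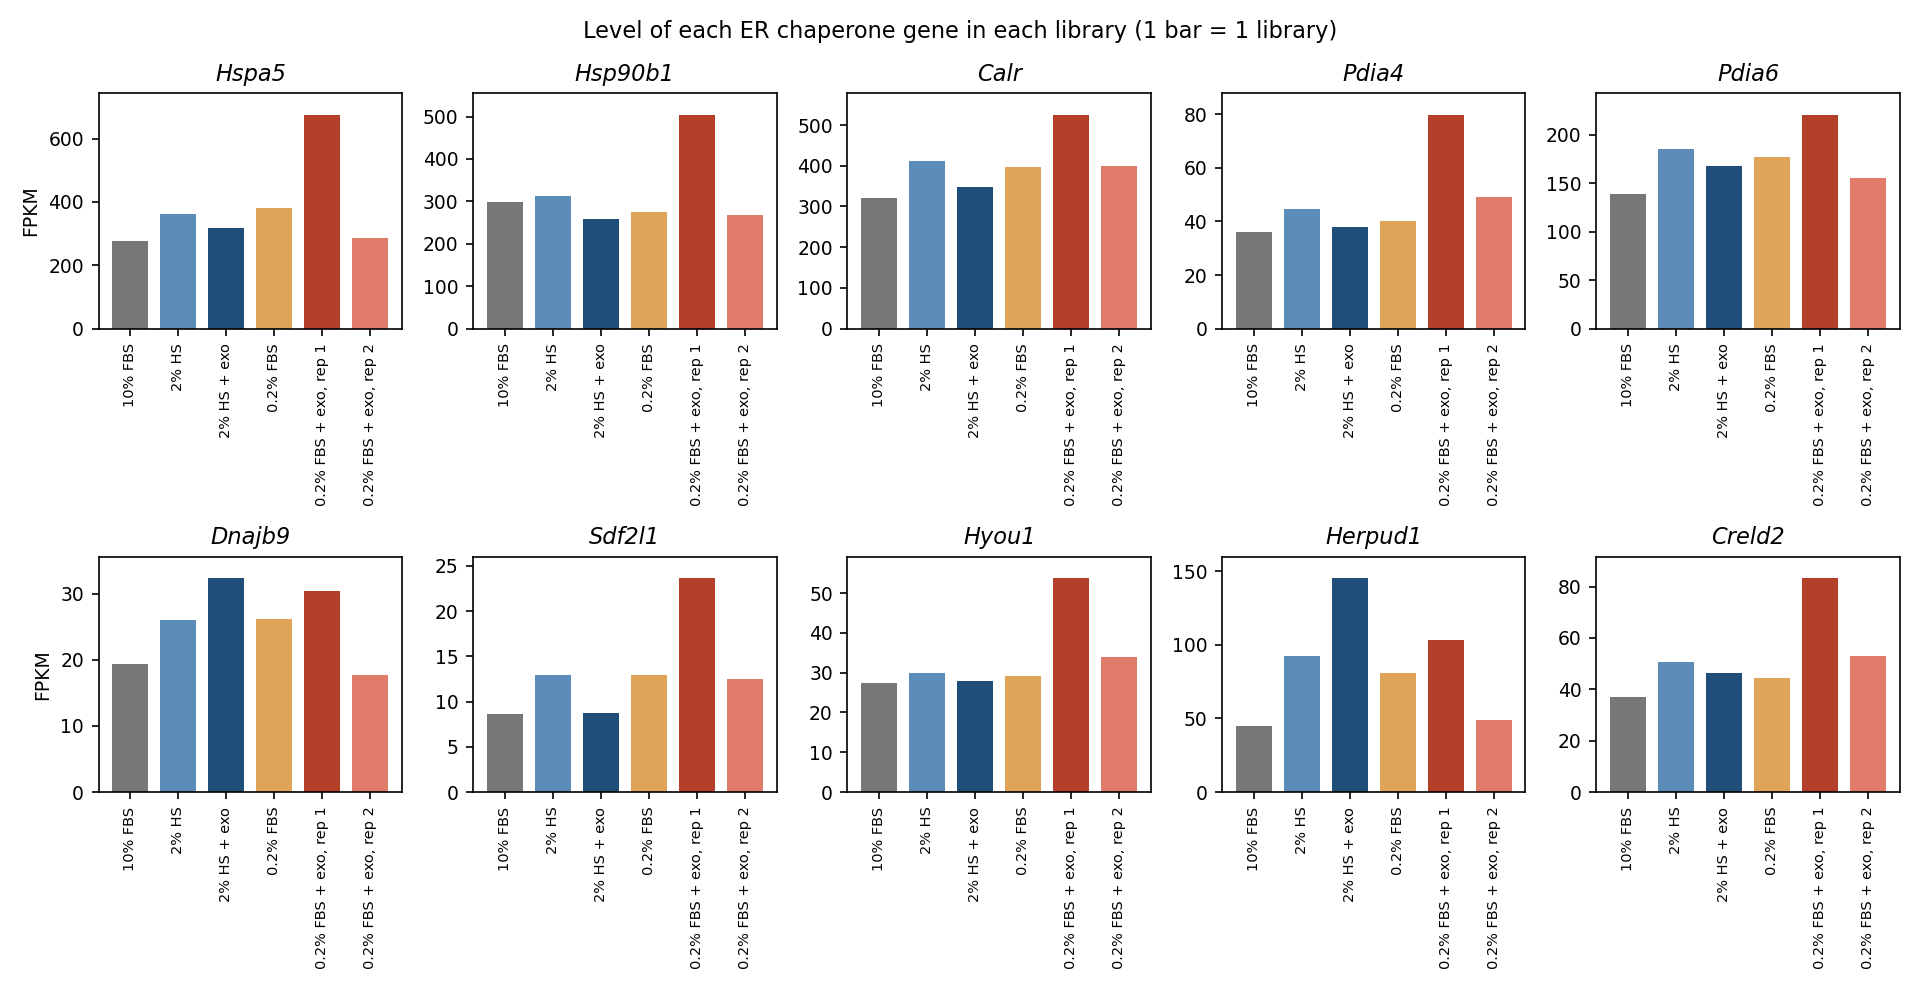
Level of each of the 10 genes in FPKM (vertical axis from 0, own scale per gene) in each of the 6 libraries, with 1 bar per library and no error bars; rep is the replicate and exo the exosome fraction. For 8 genes the tallest bar is 0.2% FBS + exosome replicate 1, and for Dnajb9 and Herpud1 it is 2% HS + exosome.

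The values are given gene by gene in the order 10% FBS, 2% HS, 2% HS + exosome, 0.2% FBS, then 0.2% FBS + exosome replicate 1 and replicate 2. Hspa5 encodes BiP, the Hsp70 of the ER lumen and the protein that holds the stress sensors inactive, and lies on chromosome 2 (mm10, 34771970 to 34777547, plus strand). Its levels were 276, 361, 319, 381, 675 and 287 FPKM. Replicate 1 was 1.77-fold above the 0.2% FBS library while replicate 2 was lower, at 0.755 of it. Hyou1, a large Hsp110-type chaperone that exchanges nucleotide on BiP (chromosome 9, 44379490 to 44392369, plus strand), stood at 27.3, 29.8, 28.0, 29.2, 53.7 and 34.0 FPKM. Both exosome libraries of 0.2% FBS lay above all other libraries for Hyou1, replicate 1 by far the more. Dnajb9, the ERdj4 cochaperone that feeds BiP and represses IRE1 (chromosome 12, 44205559 to 44210326, minus strand), was at 19.4, 26.1, 32.3, 26.2, 30.5 and 17.7 FPKM. It was highest with exosomes in 2% HS and lowest in replicate 2 of 0.2% FBS + exosome, so the 2 exosome libraries of 0.2% FBS lay on either side of their control. Sdf2l1, a small partner of BiP and its DnaJ cochaperones (chromosome 16, 17130138 to 17132383, minus strand), was at 8.67, 13.0, 8.73, 12.9, 23.6 and 12.5 FPKM. It is the least abundant member, and its lowest value corresponds to about 270 reads, a counting error of 6.09%, the largest of any member.

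Hsp90b1 encodes Grp94, the Hsp90 of the ER with integrins, Toll-like receptors and insulin-like growth factors among its clients (chromosome 10, 86690209 to 86705509, minus strand). It was at 298, 313, 258, 276, 504 and 268 FPKM, and it was the only member that was not lower in 10% FBS than in both control media. Calr encodes calreticulin, the lectin chaperone and calcium buffer (chromosome 8, 84841850 to 84846934, minus strand). Its levels were 320, 412, 347, 396, 525 and 399 FPKM. As a ratio, replicate 1 to replicate 2 was smaller for Calr (1.31) than for any other member. Pdia4, a protein disulphide isomerase (chromosome 6, 47796141 to 47813430, minus strand), was at 35.9, 44.7, 38.0, 40.2, 79.8 and 49.2 FPKM. Replicate 1 was 1.98-fold and replicate 2 was 1.22-fold the 0.2% FBS library. Pdia6, the isomerase that also acts on the active IRE1 sensor (chromosome 12, 17266545 to 17284770, plus strand), was at 138, 185, 168, 177, 220 and 155 FPKM, again with the exosome libraries on either side of the control. Creld2, an ER protein with disulphide isomerase activity (chromosome 15, 88819646 to 88826683, plus strand), was at 37.1, 50.6, 46.2, 44.3, 83.2 and 53.1 FPKM. Like Pdia4 and Hyou1, it was above the 0.2% FBS library in both exosome libraries. Herpud1, a membrane protein of the ER-associated degradation complex and not a folding enzyme (chromosome 8, 94386438 to 94395377, plus strand), was at 44.7, 92.6, 145, 81.0, 103 and 48.8 FPKM. As for Dnajb9, 2% HS + exosome was the highest library, and replicate 2 of 0.2% FBS + exosome lay near growth medium.

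The first comparison asks whether exosomes changed these genes in 0.2% FBS. Changes are differences of log2(FPKM + 1) from the single 0.2% FBS library. Against the study's threshold of 1 on the log2 scale, 0 of 10 genes were higher by over 1 in each exosome library, where 0.895% of all 10731 genes were. All 10 were higher than the control in replicate 1, by 0.21 (Dnajb9) to 0.97 (Pdia4), with a median of 0.83 beside 0.09 for all genes. In replicate 2, 4 of 10 were higher and 6 lower, from −0.72 (Herpud1) to 0.28 (Pdia4), with a median of −0.04 beside 0.18 for all genes. Scaling to the 75th percentile put that median at −0.17, beside 0.05 for all genes. Higher in both libraries were Calr, Pdia4, Hyou1 and Creld2, or 4 of 10, beside 55.2% of all genes. Calr rests on a change of 0.01 in replicate 2, and with scaling to the 75th percentile, where it was −0.13, 3 members were higher in replicate 2. With each library taken by itself, 6 members were higher by more than 0.5 in replicate 1 (14.1% of all genes) and 0 in replicate 2 (19.7%). Genes past 0.5 in both libraries are in both shares. In bulk RNA, a change in the mix of cells and a change in RNA per cell cannot be told apart.

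**Figure D2:**
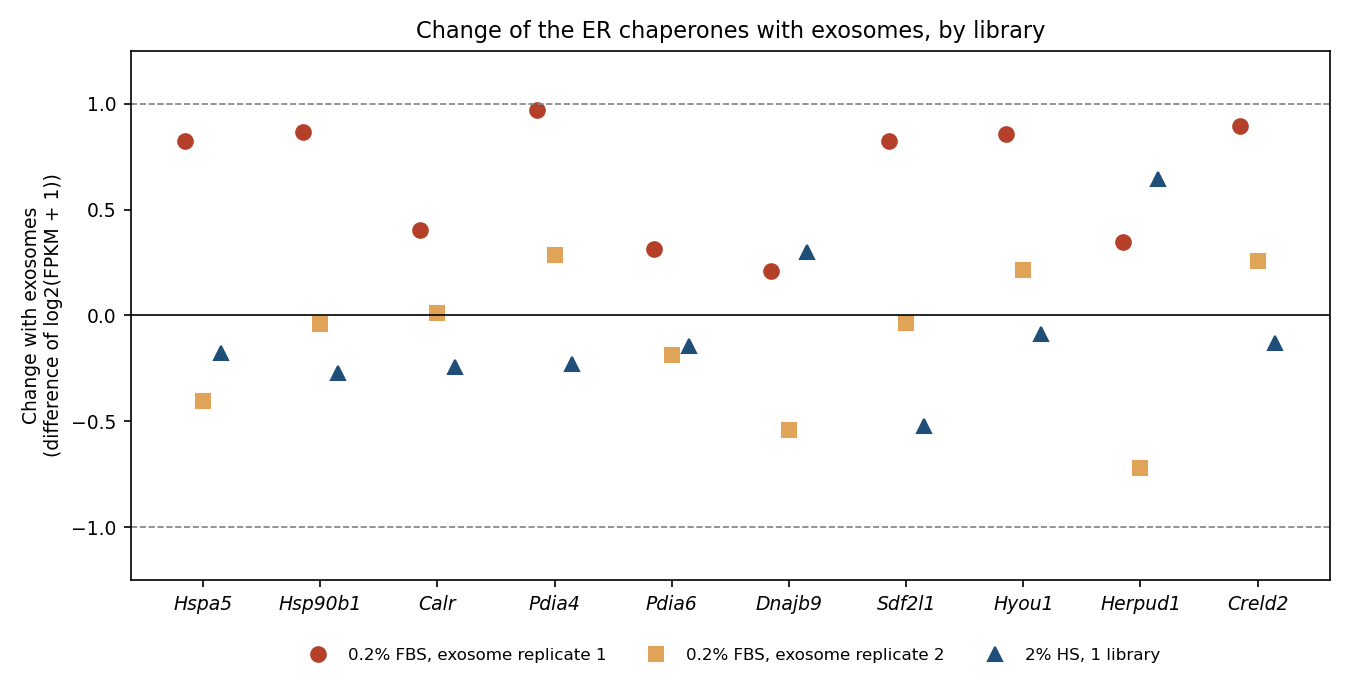
Change of each gene with exosomes as a difference of log2(FPKM + 1) from the control library of the same medium (vertical axis), for each exosome library; dashed lines mark the threshold of 1 and −1. All circles (replicate 1) lie above 0, the squares (replicate 2) lie between −0.72 and 0.28, and the triangles (2% HS) lie below 0 for all but Dnajb9 and Herpud1.

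A limma fit with 1 mean per condition gave the same picture with the replicate error included. The mean change of Pdia4 was 0.63 ± 0.49 (SD of the 2 exosome libraries; limma SE 0.27, adjusted p = 0.149). That of Creld2 was 0.57 ± 0.45 (limma SE 0.26, adjusted p = 0.166), and that of Hyou1 was 0.54 ± 0.45 (limma SE 0.25, adjusted p = 0.185). For Hspa5 the mean was 0.21 ± 0.87, so the spread between the libraries was several times the change (limma SE 0.46, adjusted p = 0.799). The remaining means were 0.41 ± 0.64 for Hsp90b1, 0.21 ± 0.28 for Calr, 0.06 ± 0.35 for Pdia6 and 0.39 ± 0.61 for Sdf2l1. Dnajb9 and Herpud1 had negative means, −0.16 ± 0.53 and −0.19 ± 0.75. None of the 10 passed limma at an adjusted p of 0.05 (range 0.149 to 0.903), 1 gene (Pdia4) had an unadjusted p under 0.05 (3379 of all 10731 genes did), and 12.5% of all genes passed after adjustment. The fit has a single residual degree of freedom, supplied by the 2 exosome libraries themselves. With so little per gene, limma draws the spread of each gene toward that of all genes tested at a similar level. An SE such as 0.27 for Pdia4 is thus not the gene's own spread. With no filter on low values, or with values below 1 raised to 1, limma called 0 of all genes in any comparison (3121 and 2929 at an unadjusted p under 0.05 in this one), so every call of other genes below depends on that setting. Over all alternatives, the highest limma adjusted p of the list genes called in 0.2% FBS lay between 0.243 and 0.389.

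The members also separated replicate 1 from replicate 2 directly. Over all 10731 genes, replicate 1 minus replicate 2 had a median of −0.07 and the middle 95% lay between −0.53 and 0.47. All 10 members were higher in replicate 1, with a median difference of 0.72. The difference was 1.23 for Hspa5 and 1.06 for Herpud1, the members above 1, where 0.298% of all genes were. It exceeded 0.5 for 9 members, all but Calr at 0.39, where 2.21% of all genes did, and 0.50 for Pdia6 was just past that line. These counts and the next were chosen after the values had been seen. Replicate 1 was the highest of the 6 libraries for 8 of 10 members, beside 14.9% of all genes. The difference between these libraries has no replicate of its own, and depth was alike, at an estimated 35200000 reads in replicate 1 and 33800000 in replicate 2.

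**Figure D3:**
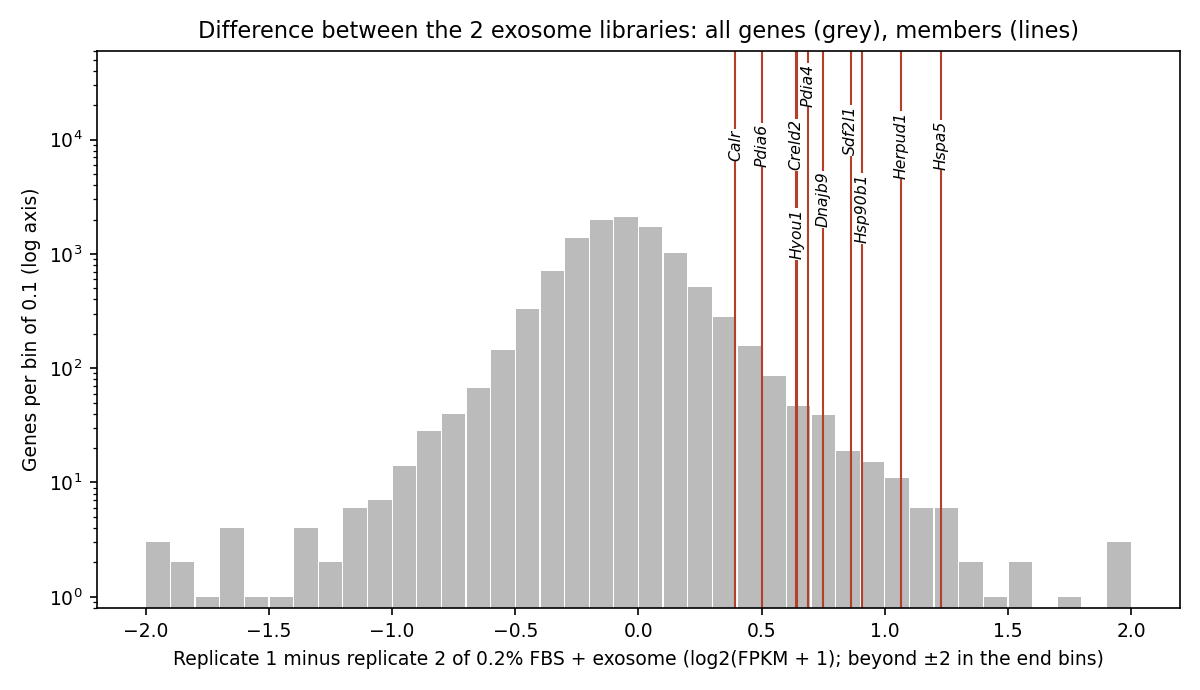
Replicate 1 minus replicate 2 of 0.2% FBS + exosome in log2(FPKM + 1) (horizontal axis), as the number of genes per bin of 0.1 for all 10731 genes (grey, log axis) and as red lines for the 10 members. The members lie between 0.39 (Calr) and 1.23 (Hspa5), in the upper tail of the grey distribution.

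In 2% HS, 1 exosome library was compared with 1 control, so the change has no replicate of its own, and it was given no test. Here 8 of 10 members were lower with exosomes, beside 58.7% of all genes, and 0 were higher by over 1, beside 0.354% of all genes. The median was −0.16, with −0.04 for all genes. Sdf2l1 was the lowest (−0.52), followed by Hsp90b1 (−0.27), Calr (−0.24), Pdia4 (−0.23), Hspa5 (−0.18), Pdia6 (−0.14), Creld2 (−0.13) and Hyou1 (−0.09). Herpud1 (0.64) and Dnajb9 (0.30) were higher. Both had their highest value of the 6 libraries in 2% HS + exosome, as did the amino acid response genes described below. Herpud1 had a match to the CARE core in its window and Dnajb9 had none. A link between that match, the amino acid response and these values was not tested.

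The difference between media was tested in the same limma fit, as the change in 0.2% FBS minus the change in 2% HS. It was 0.92 for Sdf2l1 (adjusted p = 0.317), 0.86 for Pdia4 (adjusted p = 0.290), 0.70 for Creld2 (adjusted p = 0.360) and −0.83 for Herpud1 (adjusted p = 0.453). None of the 10 passed (adjusted p 0.290 to 0.830), 0 had an unadjusted p under 0.05 (2091 of all 10731 genes did), and 1.16% of all genes passed after adjustment. The effect of exosomes on these genes is therefore not shown to differ between the media.

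The control media can be set beside growth medium, again with 1 library each and both sharing the 10% FBS library. In 2% HS all 10 members were higher than in 10% FBS, and in 0.2% FBS 9 of 10 were, the exception being Hsp90b1 at −0.11. Both control media were higher for 9 of 10 members and for 31.4% of all genes. The median was 0.40 in 2% HS and 0.33 in 0.2% FBS, while the medians of all genes were −0.08 and −0.09. Herpud1 was the one member higher by over 1 in 2% HS (1.03, or 2.07-fold, beside 1.79% of all genes). In 0.2% FBS it was higher by 0.84, and 0 members were higher by over 1, again beside 1.79% of all genes. In 2% HS and 0.2% FBS, Sdf2l1 was at 0.53 and 0.52 and Hspa5 at 0.39 and 0.46, whereas Hyou1 was nearly level at 0.12 and 0.09. The 10% FBS library was the lowest of the 6 for 8 of 10 members, beside 11.7% of all genes.

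Against 10% FBS, the exosome libraries of 0.2% FBS again parted. In replicate 1, 5 of 10 members were higher by over 1, beside 0.615% of all genes. These were Sdf2l1 (1.35), Hspa5 (1.29), Herpud1 (1.19), Creld2 (1.14) and Pdia4 (1.13). In replicate 2 the same genes were at 0.49, 0.06, 0.12, 0.50 and 0.44, so 0 members were higher by over 1 in each library, beside 0.205% of all genes. By limma, 0 of 10 passed (adjusted p 0.286 to 0.812), 4 had an unadjusted p under 0.05 (Creld2, Hyou1, Pdia4 and Sdf2l1, beside 1233 of all 10731 genes) and 0.0652% of all genes passed after adjustment. In replicate 2, Hspa5, Herpud1, Dnajb9 (−0.12) and Hsp90b1 (−0.15) were thus close to their levels in growth medium.

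The other genes of the pathway are given from lists by role. Of 27 further ER folding factors, 23 were higher in both exosome libraries of 0.2% FBS, beside 55.2% of all genes, with medians of 0.32 and 0.25 beside 0.09 and 0.18 for all genes. By limma 1 of 27 rose, beside 12.5% of all genes that passed. This was Pdia5, another disulphide isomerase, at 0.63 and 0.81 (adjusted p = 0.0284). Txndc5 (0.61 and 0.70, adjusted p = 0.0565), Cnpy3 (0.57 and 0.55) and Ganab (0.56 and 0.50), the catalytic subunit of glucosidase II that trims N-glycans, did not pass. Among close relatives of members, Canx (calnexin, the membrane counterpart of calreticulin) was at 0.20 and −0.13. Pdia3 was at 0.67 and 0.25, P4hb at 0.28 in both libraries, Sdf2 at 0.43 and 0.61 and Creld1 at 0.38 and 0.07. Replicate 1 minus replicate 2 had a median of 0.06 in this list, against 0.72 in the 10 members and −0.07 over all genes. It was above 0 for 17 of the 27 and below 0 for 10. Replicate 1 was the highest of the 6 libraries for 14 of the 27, beside 14.9% of all genes. Manf, at 0.68 and 0.01, was split like the members, so the peak in replicate 1 was not particular to the 10. Of 20 genes of ER-associated degradation, 1 rose, Faf2 (0.54 and 0.62, adjusted p = 0.0480). Syvn1, the Hrd1 ubiquitin ligase that works with Herpud1, was at 0.96 and 0.14 (adjusted p = 0.240), the split of the members. Edem1 was at 0.61 and 0.44, Ube2g2 at −0.50 and −0.53, and Herpud2, a relative of Herpud1, at 0.23 and 0.13. Of 18 translocon and signal peptide genes none passed, and the medians were 0.02 and −0.03.

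Among 15 sensors and their factors, 1 rose, beside 12.5% of all genes that passed. This was Eif2ak3, which encodes PERK (0.78 and 0.60, adjusted p = 0.0375). It was at −0.25 in 2% HS. Xbp1 was at 67.6 FPKM in the 0.2% FBS library, 93.2 in replicate 1 and 52.0 in replicate 2, changes of 0.46 and −0.37, so its exosome libraries too lay on either side of the control. Atf6 was at −0.20 and −0.31 (adjusted p = 0.337), and Ern1 at 0.07 and 0.16 (adjusted p = 0.669). Gene levels in this table do not separate spliced from unspliced Xbp1, nor do they show cleavage of ATF6 or phosphorylation of PERK.

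The PERK and ATF4 list and the amino acid response list moved otherwise. All 20 amino acid response genes were lower in both exosome libraries of 0.2% FBS (medians −0.72 and −0.84). All 20 were higher with exosomes in 2% HS (median 0.99), where 58.7% of all genes were lower. By limma 11 of 20 fell in 0.2% FBS (beside 12.5% of all genes that passed in either direction), and in 13 of 20 the difference between media passed (beside 1.16%). Asns, asparagine synthetase, was at 126 FPKM in the 0.2% FBS library and at 47.6 and 43.4 FPKM with exosomes (−1.38 and −1.51, adjusted p = 0.00764). It went from 121 to 265 FPKM in 2% HS. Of 15 PERK and ATF4 genes, 3 fell (Fgf21, Trib3 and Chac1) and 1 rose (Ddit4) in 0.2% FBS by limma, beside the same 12.5%. In 2% HS 15 of 15 were higher, where 58.7% of all genes were lower. The test between media was passed by 8, beside the same 1.16%. Trib3, a pseudokinase that restrains ATF4, was at −1.17 and −1.07 in 0.2% FBS (adjusted p = 0.00895) and at 2.43 in 2% HS. Atf4 itself was at −0.34 and −0.37 (adjusted p = 0.404) and at 0.54 in 2% HS. Ddit3, the gene of the ER stress factor CHOP, was at 1.03 and 0.38 (adjusted p = 0.102) and at 0.83 in 2% HS. The 2 exosome libraries of 0.2% FBS, far apart in the ER chaperones, were thus close together in the amino acid response, with a median difference of 0.11.

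**Figure D4:**
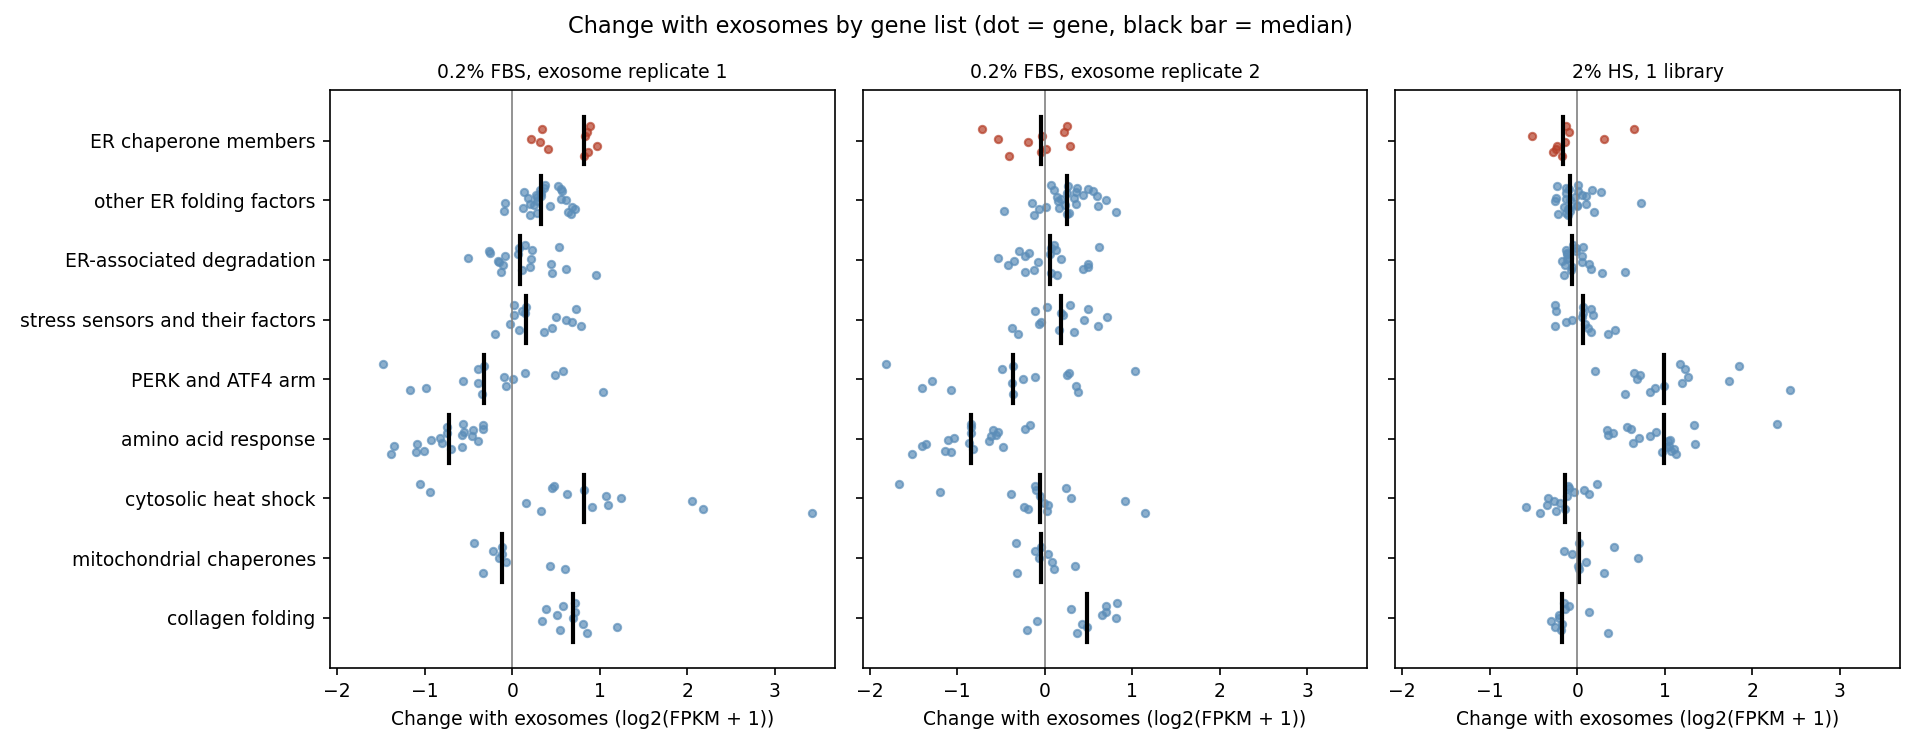
Change with exosomes (horizontal axis, difference of log2(FPKM + 1) from the control library) for each gene (dot) of 9 lists, with the list median as a black bar; panels are replicate 1 and replicate 2 of 0.2% FBS + exosome and the single 2% HS + exosome library. The ER chaperones (red) and the cytosolic heat shock genes have medians of 0.83 and 0.82 in replicate 1 and of −0.04 and −0.06 in replicate 2, and the amino acid response genes lie below 0 in both replicates and above 0 in 2% HS.

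Heat shock genes of the cytosol moved with the same library as the ER chaperones. Of 15 tested, 13 were highest of the 6 libraries in replicate 1, beside 14.9% of all genes, and the medians were 0.82 in replicate 1, −0.06 in replicate 2 and −0.14 in 2% HS. All 15 were higher in replicate 1 than in replicate 2, where the median of all genes was −0.07. Their summed level was 4977 FPKM in replicate 1 and between 3529 and 4111 FPKM in the other 5 libraries. Hsph1, a cytosolic Hsp110, was at 34.5, 42.2, 38.2, 37.7, 174 and 33.0 FPKM in the order used above. Hsp90aa1, the inducible cytosolic Hsp90, was at 263, 281, 221, 238, 510 and 245 FPKM, close in its pattern to its ER relative Hsp90b1. Hspa1b, the inducible Hsp70, was at 2.23, 2.99, 1.97, 1.90, 30.0 and 5.39 FPKM (3.42 and 1.14 with exosomes, adjusted p = 0.0685), and its reads can be split with the near-identical Hspa1a. Dnajb1, an Hsp40 of the cytosol, rose (2.06 and 0.92, adjusted p = 0.0386), and Hspb8 and Cryab, small heat shock proteins abundant in muscle, fell (adjusted p = 0.0256 and 0.0328). The constitutive relatives moved less, with Hspa8 at 0.33 and 0.02 and Hsp90ab1 at 0.16 and −0.01. The part of this heat shock pattern in the ER chaperone values was not tested. Of 9 mitochondrial chaperones none passed limma, the medians were −0.12 and −0.04, and 2 were highest in replicate 1, near the share of all genes. These were Hspd1, the mitochondrial Hsp60 (0.60 and 0.11), and its cochaperonin Hspe1 (0.43 and 0.34). Hspa9, the mitochondrial relative of Hspa5, was at −0.33 and −0.32, and Trap1, the relative of Hsp90b1, at −0.08 and 0.08.

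Of 11 collagen folding factors, a further ER group, 9 were higher in both exosome libraries of 0.2% FBS, beside 55.2% of all genes, with medians of 0.69 and 0.49. P4ha1 (0.54 and −0.20) and Plod2 (0.34 and −0.09) were lower in replicate 2. By limma 4 of 11 rose, beside 12.5% of all genes that passed in either direction, among them Plod3, a lysyl hydroxylase (0.69 and 0.81, adjusted p = 0.0263), and Leprel2 (0.72 and 0.83, adjusted p = 0.0230). P4ha2, a prolyl hydroxylase subunit, was at 1.20 and 0.49 and did not pass (adjusted p = 0.0716). Genes of sarcoplasmic reticulum calcium handling had medians of −0.70 and −0.92, and 6 of 12 fell, among them Hrc and Casq2 (adjusted p = 0.0143 and 0.0298). The muscle lineage markers Myod1, Myog, Des, Ckm, Myh3, Tnnt3 and Acta1 were present in all libraries, as the cell line's label requires. Their summed level was 5020 FPKM in 10% FBS, 10190 in 2% HS, 9510 in 2% HS + exosome and 11103 in 0.2% FBS. With exosomes in 0.2% FBS it was 4994 and 3733 FPKM, and 7 of 7 were lower in both libraries, where 1 (Tnnt3, adjusted p = 0.0289) fell by limma. Of 18 markers of other cell types in the table, 14 stayed below 1 FPKM in every library, Kdr, Cfd and Alb were at 0 in all, and the sum ranged from 10.5 to 26.0 FPKM. Ppbp, a platelet chemokine, was at 3.42 FPKM in the 0.2% FBS library, 7.86 in replicate 1 and 17.0 in replicate 2 and rose (adjusted p = 0.0293). Tubb3, a neural tubulin, was at 9.20, 3.85 and 2.21 FPKM in the same libraries and fell (adjusted p = 0.0160). The part of these marker changes in the ER chaperone values was not tested.

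Across the 6 libraries the members followed one another to different degrees, given as descriptions over points that share libraries. Pearson r with the mean of the other 9 members was 0.960 for Hspa5, 0.954 for Pdia6, 0.923 for Creld2, 0.914 for Calr, 0.873 for Pdia4, 0.869 for Sdf2l1, 0.860 for Hyou1 and 0.825 for Hsp90b1. It was 0.581 for Dnajb9 and 0.415 for Herpud1. Of 5866 other genes averaging 10 FPKM or more, those most like the mean of the members were Slc39a14, a zinc transporter (r = 0.986), Dnajc3, the ER cochaperone p58IPK (r = 0.984), 2610301B20Rik (r = 0.974), Stip1, the Hsp70 and Hsp90 organizing protein of the cytosol (r = 0.954), Tmem33 (r = 0.951) and Hspb1 (r = 0.946). Dnajc3 was at 20.9 FPKM in the 0.2% FBS library, 35.0 in replicate 1 and 19.9 in replicate 2. Pearson r does not depend on the size of a change. In the same libraries Slc39a14 was only at 15.3, 18.4 and 15.2 FPKM, and 2610301B20Rik at 10.6, 11.8 and 10.5 FPKM. Replicate 1 of 0.2% FBS + exosome was the highest of the 6 libraries for the summed level of the members.

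Dnajc3, Syvn1 and Canx also carry an ERSE in their promoter window. Outside the members, 10 expressed genes did, and their medians with exosomes in 0.2% FBS were 0.24 and 0.13, beside 0.09 and 0.18 for all genes. Of these, 9 of 10 were higher in replicate 1 and 7 of 10 in replicate 2. Replicate 1 was the highest library for 6 of the 10, beside 14.9% of all genes. Xlr3a, Xlr3b and Xlr3c, related genes at 2.12, 1.80 and 5.20 FPKM in replicate 1, each count as 1 gene here, so these counts are not of 10 unrelated genes. The values of the 10 parted from one another: Syvn1 was at 0.96 and Dnajc3 at 0.72 in replicate 1, while Canx was at 0.20, Hnrnpa3 at 0.09 and Zfp57 at −0.11. Among the members, those with an ERSE (Hspa5, Hsp90b1, Calr, Pdia6 and Creld2) were at 0.31 to 0.89 in replicate 1. Those without a match in the window (Pdia4, Dnajb9 and Sdf2l1) were at 0.21 to 0.97, so the 2 ranges overlapped. Herpud1, with ERSE-II and the CARE core, was at 0.34 in replicate 1 and 0.64 in 2% HS.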

How the data were processed

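RNA of C2C12 cells was read as 75 base single-end mRNA libraries from 6 samples, grouped by the treatment in the labels. The authors trimmed reads with cutadapt 1.9.1, mapped them to mm10 with TopHat2 2.1.0 and computed FPKM with Cufflinks. The deposited FPKM values, 1 column per library, were used as they stand. FPKM divides by length and depth, and the table holds no counts. Depth was therefore estimated from low values of 2442 genes with 1 transcript, as the depth at which 70.5% to 72.3% of them lie within 0.1 of a whole read, which gave 33800000 to 39400000 reads. It limits the members little.

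Values were compared as log2(FPKM + 1), with a pseudocount of 1 that shrinks changes of low genes. The threshold of 1 was applied per library, and limma 3.58.1 (R 4.3.3, mean-variance trend, 1 mean per condition) was fitted to the 10731 entries averaging 1 FPKM or more, with Benjamini-Hochberg adjustment over all of them. Single libraries were assumed to vary like the 2 exosome libraries. The script was tested on simulated data. Differences of 1 library from 1 were given no test of their own, while the difference between media was tested in the limma fit, where single libraries borrow the spread of the exosome libraries. Promoter windows are from RefSeq (GRCm38.p6) and gene positions from GENCODE on mm10. The members, the 12 other lists and the tests were chosen with earlier results of these data known. Named genes are all members, the 4 largest mean changes in 0.2% FBS per list (not all printed), relatives, sensors and the 6 genes most like the members, and Hsph1, like other genes named beside these, was picked after its values were seen. Alternatives were another pseudocount (0.1), values below 1 raised to 1, scaling to the 75th percentile, no filter, a mean of at least 5 FPKM, no trend, an exosome effect common to both media, and leaving out each exosome library.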

Additional observations from a re-analysis of the deposited data

Results flagged for a closer look

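In 4 members, both exosome libraries of 0.2% FBS were higher than their control while the exosome library of 2% HS was lower than its own, a pattern that 33.7% of all 10731 genes showed. The difference of these changes, 0.2% FBS less 2% HS, was 0.45 for Calr, 0.86 for Pdia4, 0.63 for Hyou1 and 0.70 for Creld2. By limma, the difference between media did not pass for Calr (adjusted p = 0.638), Pdia4 (adjusted p = 0.290), Hyou1 (adjusted p = 0.406) or Creld2 (adjusted p = 0.360). Calr rests on a change of 0.01 in replicate 2, which was −0.13 after scaling to the 75th percentile.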

How the results depend on the processing

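Of the 10 members 0 passed limma in any alternative run (adjusted p 0.141 to 0.953 for exosomes in 0.2% FBS, 0.240 to 0.880 against 10% FBS, 0.277 to 0.955 between media and 0.745 to 0.998 for an effect common to both media). The fits with no filter, with values below 1 raised to 1 and with a common effect called 0 of all genes (709 at an unadjusted p under 0.05 in the last), so they say nothing about the stability of the members' calls. Leaving out 1 exosome library of 0.2% FBS mattered most, and without either of them no residual degree of freedom and so no test is left. Against 10% FBS, the number of members higher by over 1 was 0 with replicate 2 alone and 5 with replicate 1 alone. The exosome change in 0.2% FBS ranged from −0.40 to 0.82 for Hspa5, −0.0414 to 0.87 for Hsp90b1, −0.19 to 0.31 for Pdia6, −0.0364 to 0.83 for Sdf2l1, −0.54 to 0.21 for Dnajb9 and −0.72 to 0.34 for Herpud1. Against 10% FBS it ranged from −0.15 to 0.76 for Hsp90b1 and −0.12 to 0.63 for Dnajb9. The difference between media ranged from −0.23 to 1.00 for Hspa5 and −0.0448 to 0.46 for Pdia6. Without a change of sign, it ranged from 0.49 to 1.35 for Sdf2l1, 0.51 to 1.20 for Pdia4 and 0.38 to 1.02 for Creld2. For Hyou1 it was 0.30 to 0.95, for Calr 0.26 to 0.65 and for Herpud1 −1.36 to −0.30. The exosome change of Pdia6 in 0.2% FBS turned to −0.0455 with scaling to the 75th percentile. With a common exosome effect, Pdia6 turned to −0.0261, Dnajb9 to 0.0352 and Herpud1 to 0.17. The common effect averages over both media by construction. Scaling moved the median of all genes from 0.18 to 0.05 in replicate 2. No paired analysis was possible because the groups compared share fewer than 2 replicate numbers. With 1 control library per medium, an odd control cannot be told from an exosome effect.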
